A study of Mus musculus with 6 samples.

Results

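The 10 genes described here encode the machinery that writes, copies, removes and guards DNA methylation. They comprise the DNA methyltransferases *Dnmt1*, *Dnmt3a* and *Dnmt3b*, the UHRF proteins *Uhrf1* and *Uhrf2*, the dioxygenases *Tet1*, *Tet2* and *Tet3*, and *Trim28* (KAP1) with *Setdb1*. They were chosen by name, and each has a single row among the 20624 genes of the authors' table. RNA was sequenced from mDCT15 cells, a mouse line labelled as distal convoluted tubule, in 3 *Pkd1*-/- and 3 wild type samples. The *Pkd1*-/- cells were made from the same line by CRISPR/Cas9 editing, and how many edited clones were sequenced is not given in the sources used here. The titles name the edited cells *Pkd1*-/-, whereas the genotype label reads PKD1 knockdown. No treatment or time course is given for either genotype.

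Methylation of cytosine in CpG dinucleotides silences repeats and marks 1 parental copy of imprinted genes. DNMT3A and DNMT3B set new methylation, and DNMT1 copies it to the daughter strand after replication, guided by UHRF1, which recognises hemimethylated DNA. TET enzymes oxidise methylcytosine, which opens the way to its removal. At imprinted regions, zinc finger proteins with a KRAB domain recruit TRIM28, which in turn brings SETDB1, a histone H3 lysine 9 methyltransferase, and with it protection of the mark through the early embryo.

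The value analysed is the authors' mean normalized count, a mean over all 6 samples of both genotypes. It carries no replicate error, no value of a single sample and no depth, so the spread between samples is unknown. The authors' own comparison of the genotypes was not used. A difference between *Pkd1*-/- and wild type cells was thus not analysed here, and the levels below pool both genotypes. The mean normalized count of the targeted gene *Pkd1* was 3175, which as a pooled value does not check the genotype labels. The median gene of the table had a mean normalized count of 104.5. Of the genes in the table, 66.5% had a mean of at least 10. To compare genes with each other, each mean was divided by the summed length of the gene's merged exons in the GENCODE annotation of GRCm39. The result is a level in mean normalized counts per kilobase, available for 20122 genes (97.6%) with a median of 28.6.

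The mean normalized counts of the 10 genes ran from 140.9 for *Tet1* to 7483 for *Dnmt1*. Against all rows of the table, each of the 10 lay above the median gene, but for *Dnmt3b* and *Tet1* this depended on the rows counted. *Dnmt3b* was at percentile 53.2 of all rows, at 29.6 of the genes with 10 or more counts on average and at 31.5 of the protein-coding genes. *Tet1* was at percentile 52.2 of all rows, at 49.1 of the genes with a mean of 1 or more, at 28.2 of those with 10 or more and at 30.2 of the protein-coding genes. Per kilobase, 8 of the 10 lay above the median level of the table, and *Dnmt3b* and *Tet1* lay below it. *Trim28* had the highest level (1727 per kilobase), followed by *Uhrf1* (1312) and *Dnmt1* (880.4). *Tet1* had the lowest, 9.12 per kilobase. The highest level was thus 189.4 times the lowest. The median level of the 10 genes was 191.1 per kilobase, beside 80.9 for the genes whose mean was 10 or more.

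**Figure D1:**
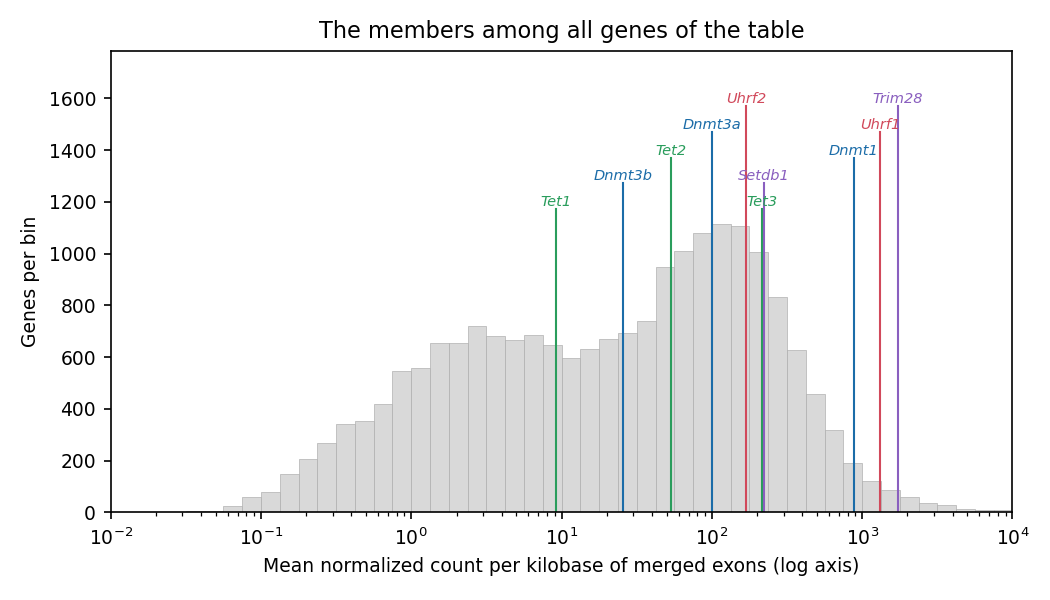
The horizontal log axis gives the level in mean normalized counts per kilobase of merged exons, and grey bars count genes of the table per bin. Coloured lines mark the 10 genes by family (blue, DNA methyltransferases; red, UHRF proteins; green, TET dioxygenases; purple, KAP1-SETDB1); *Dnmt1*, *Uhrf1* and *Trim28* stand in the upper tail and *Tet1*, at 9.12, lies left of the median of 28.6.

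Among the DNA methyltransferases, the maintenance enzyme gene *Dnmt1* was the most abundant by mean count. *Dnmt1* (ENSMUSG00000004099) occupies bases 20817945 to 20871184 of chromosome 9 in GRCm39, on the minus strand, with 39 exons in its canonical transcript. Its mean normalized count was 7483, and 204 genes of the table had a higher mean. The de novo enzyme gene *Dnmt3a* (ENSMUSG00000020661, chromosome 12, bases 3856007 to 3964443, plus strand) had a mean normalized count of 1710. *Dnmt3b* (ENSMUSG00000027478, chromosome 2, bases 153490861 to 153529650, plus strand), the other de novo enzyme gene, had a mean normalized count of 159.3, which 9659 genes exceeded.

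Per kilobase the levels were 880.4 for *Dnmt1*, 100.4 for *Dnmt3a* and 25.7 for *Dnmt3b*. *Dnmt1* held 87.5% of the summed level of the family over merged exons, and 45.7% with the median length of the annotated transcripts. The ratio of *Dnmt1* to *Dnmt3b* was 34.3, and it stayed between 24.9 and 34.4 over the 5 ways of setting gene length that were tried. The ratio of *Dnmt1* to *Dnmt3a* was 8.77 but depended on the length. It was 2.45 with the coding length, and with the median length of the annotated transcripts it was 0.864, which turns the order round. The canonical transcript of *Dnmt3a* has 9752 bases, of which 2724 are coding, and it has 21 annotated transcripts, many of them short.

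Of the UHRF genes, *Uhrf1* was the more abundant. *Uhrf1* (ENSMUSG00000001228, chromosome 17, bases 56610275 to 56630489, plus strand), whose product brings DNMT1 to newly replicated DNA, had a mean normalized count of 6926. *Uhrf2* (ENSMUSG00000024817, chromosome 19, bases 30007571 to 30071692, plus strand), a paralog with the same domain layout, had a mean normalized count of 1747. The level per kilobase was 1312 for *Uhrf1* and 168.3 for *Uhrf2*, a ratio of 7.80. Over the 5 lengths this ratio ran from 3.72 to 7.80, so *Uhrf1* was higher under each.

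*Uhrf1* and *Dnmt1*, whose products act together at the replication fork, were close in count. The mean normalized count of *Uhrf1* was 0.926 times that of *Dnmt1*. Per kilobase *Uhrf1* was 1.49 times *Dnmt1*, with a range from 1.44 to 1.92 over the 5 lengths.

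*Tet3* was the most abundant TET gene. *Tet3* (ENSMUSG00000034832, chromosome 6, bases 83339355 to 83436066, minus strand) had a mean normalized count of 3572. *Tet2* (ENSMUSG00000040943, chromosome 3, bases 133169436 to 133250900, minus strand) had a mean normalized count of 950.1. *Tet1* (ENSMUSG00000047146, chromosome 10, bases 62640349 to 62744775, minus strand), best known from embryonic stem and germ cells, had a mean normalized count of 140.9.

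Per kilobase the levels were 213.9 for *Tet3*, 53.6 for *Tet2* and 9.12 for *Tet1*. *Tet3* thus held 77.3% of the summed TET level, *Tet2* 19.4% and *Tet1* 3.30%. With the median length of the annotated transcripts these shares were 68.4%, 9.81% and 21.8%. Over the 5 lengths, the ratio of *Tet3* to *Tet2* ran from 3.38 to 6.98. The ratio of *Tet3* to *Tet1* was 23.5 and ran from 3.14 to 59.6. The lower bound of the latter came from the median transcript length, under which *Tet2* was 0.450 times *Tet1*. Under each of the other 4 lengths *Tet2* exceeded *Tet1*, and the median transcript of *Tet1* is far shorter than its canonical transcript of 13986 bases.

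The scaffold gene *Trim28* and the methyltransferase gene *Setdb1* were both well above the median gene. *Trim28* (ENSMUSG00000005566, chromosome 7, bases 12733041 to 12764976, plus strand) had a mean normalized count of 7446, with 208 genes above it. *Setdb1* (ENSMUSG00000015697, chromosome 3, bases 95229399 to 95264541, minus strand) had a mean normalized count of 2429, with 1540 genes above it. The level per kilobase of *Trim28* was 1727 and that of *Setdb1* 221.2. Their ratio of 7.80 ran from 4.32 to 7.80 over the 5 lengths.

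Both genes share exon sequence with a gene on the opposite strand. Of the merged exons of *Trim28*, 67.8% (2923 bases) overlap annotated exons of *Chmp2a*, which had a mean normalized count of 864.0. *Setdb1* shares 1309 bases (11.9%) with *Cers2*, a ceramide synthase gene with a mean normalized count of 3158. *Tet3* shares 1512 bases (9.06%) with *Bola3*, whose mean was 257.8. For the other members, the largest share of exon bases in common with a gene on the opposite strand was 4.91%, for *Uhrf2* and a long non-coding RNA gene. These overlaps are those of GENCODE vM39, which has transcripts added since the annotation used for counting. How far they hold in that earlier annotation was not tested. The authors counted reads with the default settings of HTSeq, which assign a read pair to a gene only where the first read has the strand of the gene. Whether this orientation fits libraries of the kit used is not given in the sources used here. How far signal from the opposite strand enters the values of these genes, that of *Trim28* at the top of the order included, was not tested.

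The order of the levels was *Trim28*, *Uhrf1*, *Dnmt1*, *Setdb1*, *Tet3*, *Uhrf2*, *Dnmt3a*, *Tet2*, *Dnmt3b* and *Tet1*. *Trim28* was first and *Uhrf1* second under each of the 5 lengths, although with the coding length *Trim28* was only 1.01 times *Uhrf1*. *Dnmt1* took place 3 under 4 lengths and place 4 with the median transcript. *Setdb1*, *Tet3* and *Uhrf2* form a middle group whose order is not settled. *Setdb1* was 1.03 times *Tet3* here, but between 0.585 and 1.12 times over the 5 lengths. *Tet3* was between 0.786 and 1.44 times *Uhrf2*. Other places moved with the median length of the annotated transcripts. There *Dnmt3a* went from place 7 to place 3, above *Dnmt1* and the middle group. *Tet1* went from place 10 to place 8, above *Tet2* and *Dnmt3b*. Of the 45 pairs of the 10 genes, 36 kept their order under every length and 9 did not. With no values of single samples, how these ratios compare with the spread between samples is unknown.

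**Figure D2:**
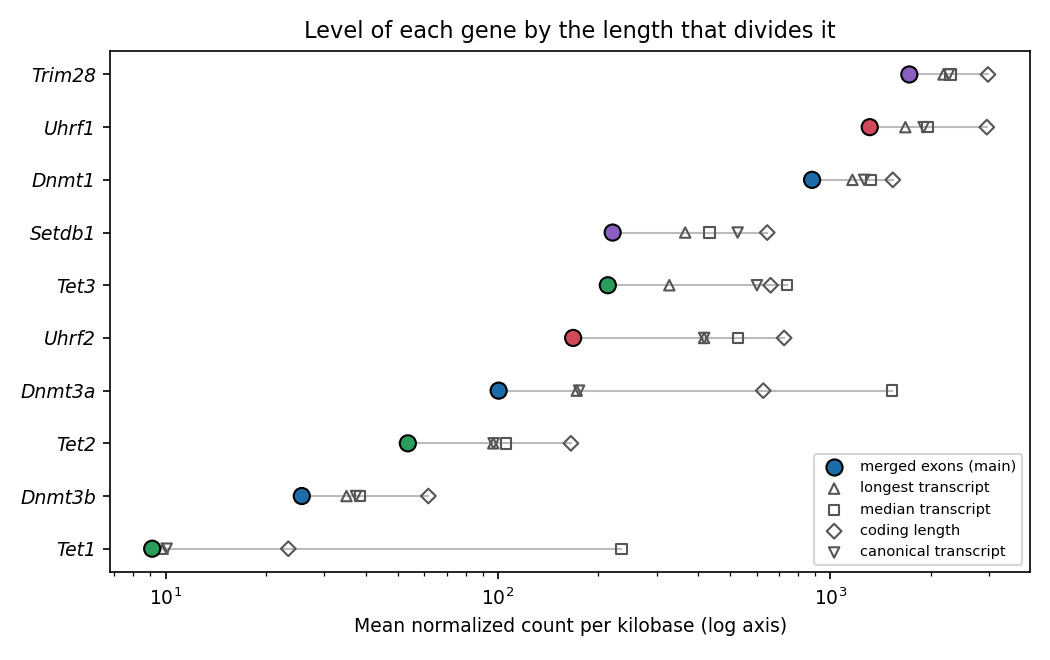
The horizontal log axis gives mean normalized counts per kilobase for each gene, ordered by the level over merged exons (filled circles, coloured by family as blue for DNA methyltransferases, red for UHRF proteins, green for TET dioxygenases and purple for KAP1-SETDB1). Open symbols show the same mean divided by 4 other lengths and grey lines their range; *Trim28* and *Uhrf1* stay on top, while *Dnmt3a* and *Tet1* spread most, the latter from 9.12 to 235.0.

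The genes that work with these enzymes were taken from 7 lists covering 52 genes. Of these, 48 were in the table, and each of the 48 had a mean normalized count of at least 10. Of all genes in the table, 66.5% reached that mean, but this share covers rows of every gene type, 13862 of them protein-coding. Among protein-coding genes the share is higher, since 30.2% of them had a mean below the 140.9 of *Tet1*. Its value was not computed, and the lists were chosen with earlier results of these data known. The median level of the 48 was 186.4 per kilobase, beside 191.1 for the 10 genes and 80.9 for all genes that reached it. Levels of the partner genes are over merged exons only.

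All 8 partners of maintenance methylation were in the table, with a median level of 364.3 per kilobase. Their highest level was that of *Pcna*, the sliding clamp of replication (1050 per kilobase, mean normalized count 2521). Their lowest was that of *Ehmt1*, a histone H3 lysine 9 methyltransferase (165.5 per kilobase).

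Of the 4 partners of de novo methylation, *Dnmt3l*, the catalytically inactive cofactor of DNMT3A and DNMT3B in germ cells, had no row and so no value here. The other partners ranged from *Kdm1b*, a histone H3 lysine 4 demethylase (66.4 per kilobase), to *Setd2*, which sets histone H3 lysine 36 trimethylation (247.1 per kilobase). *Dnmt3a* itself, at 100.4, lay within that range and *Dnmt3b*, at 25.7, below it.

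The 12 TET partners and base excision genes had a median level of 185.1 per kilobase. They ran from *Cxxc4*, a CpG-binding partner of TET2 (6.09 per kilobase, mean normalized count 84.8), to *Apex1*, the endonuclease for abasic sites (1004 per kilobase). The 7 genes listed as methyl-CpG readers kept to a narrower range, from 78.3 per kilobase for *Zbtb38* to 305.0 for *Mbd3*. MBD3 is listed with this family although the mammalian protein binds methylated DNA poorly.

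The 14 partners of KAP1 and SETDB1 were all in the table, with a median level of 150.9 per kilobase. The highest was *Cbx5*, which encodes heterochromatin protein HP1 alpha, at 1551 per kilobase and a mean normalized count of 16032. The lowest was *Atf7ip*, which encodes the stabilising partner of SETDB1, at 42.2 per kilobase. The KRAB zinc finger genes that guard imprints, *Zfp57* and *Zfp445*, were singled out after their values were seen. *Zfp57* had a mean normalized count of 791.8 (86.1 per kilobase), and *Zfp445* had a mean of 1482 (198.3 per kilobase).

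The 4 enzymes of methyl donor supply ran from *Mtr*, which encodes methionine synthase (112.6 per kilobase), to *Mat2a*, which makes S-adenosylmethionine (908.8 per kilobase). The germline and zygote genes *Dppa3*, *Nlrp14* and *Dnmt3c*, 3 of 3 on that list, had no row.

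**Figure D3:**
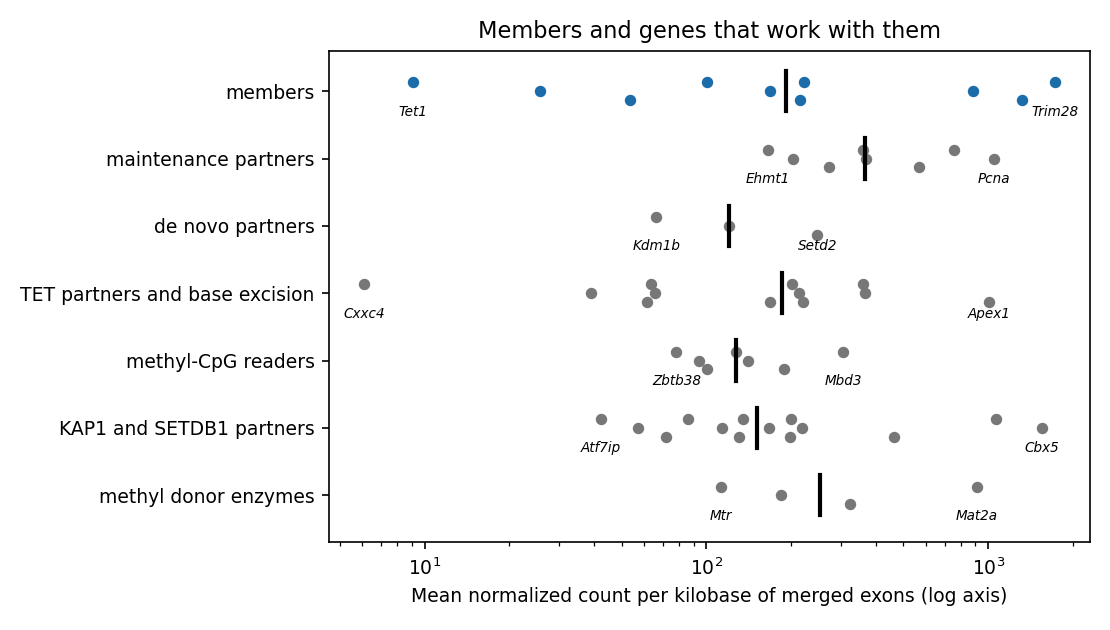
Each point is a gene, placed by its level in mean normalized counts per kilobase of merged exons on a log axis, with the 10 genes in blue, the partner lists in grey and black bars at each median. The 10 genes span from 9.12 (*Tet1*) to 1727 (*Trim28*), and the grey lists run from 6.09 (*Cxxc4*) to 1551 (*Cbx5*).

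The defining markers of the labelled cell type were scarce. *Slc12a3*, the sodium chloride cotransporter of the distal convoluted tubule, *Pvalb* and *Calb1* had no row, while *Trpm6* had a mean normalized count of 29.6 and *Klhl3* one of 5.70. Of the epithelial markers, *Epcam* had a mean of 115.4 and *Krt8* one of 0.980, and *Cdh1* and *Krt18* had no row. *Lrp2*, a marker of the proximal tubule, had a mean normalized count of 8826, whereas *Slc34a1* and *Slc5a2* of that segment had means of 2.04 and 2.77. The markers of the thick ascending limb (*Umod*, *Slc12a1*) and *Nphs1* of podocytes had no row, nor did *Aqp2*, *Scnn1b*, *Kdr* and *Pou5f1*. *Aqp3* had a mean of 1.95, *Pecam1* 4.68, *Ptprc* 5.36 and *Nanog* 20.5.

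The windows before the annotated canonical starts of the 10 genes did not share a CpG content. In the 250 bases before the canonical start, the number of CpG dinucleotides ran from 2 for *Tet1* to 39 for *Dnmt3a*, with a median of 16.5. The median over 13855 protein-coding genes of the table was 12. The windows of *Dnmt3a* and *Tet3*, with 39 and 38 CpG, lay above 98.9% and 98.7% of all windows. *Dnmt1* and *Uhrf1*, among the genes with the highest levels, had 7 each, more than 26.0% of all windows. These windows follow the annotated canonical start, which need not be the start used in mDCT15 cells, and 4 of the 10 windows hold no base of an annotated exon of their own gene. The windows of *Dnmt1* and *Uhrf2* lie wholly in exons of other transcripts of the same gene. Several windows lie inside the annotated gene, downstream of its outermost start. That of *Tet1* (bases 62715794 to 62716043) is in a gene whose 5′ end is base 62744775, and 119 of its bases are exon. That of *Dnmt1* (bases 20864276 to 20864525) is in a gene whose 5′ end is base 20871184. Low CpG counts there need not describe the promoters in use. Exons of other genes cover the whole windows of *Uhrf2* and *Setdb1*, 104 bases of that of *Tet2* and 19 bases of that of *Dnmt3b*, so that 3 of the 10 windows, those of *Dnmt3a*, *Uhrf1* and *Tet3*, hold no exon base of any gene.

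The *Uhrf1* and *Dnmt3a* windows are shown because they have the fewest and the most CpG among those 3. The *Uhrf1* window is chr17:56610025-56610274 and the *Dnmt3a* window chr12:3856713-3856962, both on the plus strand of GRCm39. They are printed 5′ to 3′ up to the base before the start, with each CpG in capitals.
Uhrf1: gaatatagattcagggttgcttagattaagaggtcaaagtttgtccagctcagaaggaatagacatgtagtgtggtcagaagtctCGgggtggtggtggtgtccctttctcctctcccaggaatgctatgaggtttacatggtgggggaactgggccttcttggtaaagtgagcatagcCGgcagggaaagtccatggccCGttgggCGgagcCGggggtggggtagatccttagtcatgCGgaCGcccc
Dnmt3a: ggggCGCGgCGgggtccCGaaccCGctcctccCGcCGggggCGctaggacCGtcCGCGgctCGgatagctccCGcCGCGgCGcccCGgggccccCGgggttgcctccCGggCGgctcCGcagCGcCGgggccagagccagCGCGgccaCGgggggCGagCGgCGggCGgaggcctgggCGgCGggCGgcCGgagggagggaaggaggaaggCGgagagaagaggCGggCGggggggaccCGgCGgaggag

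In the *Uhrf1* window the CpG lie mostly near the start, and in the *Dnmt3a* window they fill the whole stretch, with a GC content of 83.6% against 54.0% in *Uhrf1*. The GC box GGGCGG, sought on both strands, was in 7 of the 10 windows and in 48.4% of all windows. The TATA box TATAAA was in 0 of the 10 and in 7.46% of all. The E2F sequences TTTCCCGC and TTTGGCGC were in 0 of the 10, and in 1.53% and 0.671% of all windows.

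**Figure D4:**
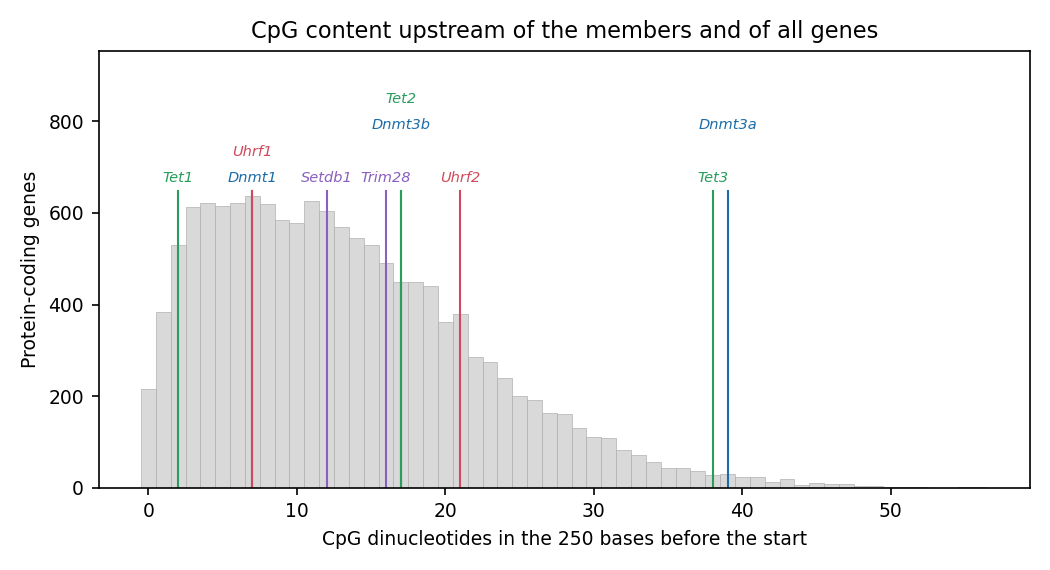
Grey bars count protein-coding genes of the table by the number of CpG dinucleotides in the 250 bases before their canonical start, and coloured lines mark the 10 genes by family (blue, DNA methyltransferases; red, UHRF proteins; green, TET dioxygenases; purple, KAP1-SETDB1). *Dnmt3a* (39) and *Tet3* (38) stand in the upper tail, and *Tet1* (2), *Dnmt1* (7) and *Uhrf1* (7) lie below the median of 12.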

How the data were processed

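RNA of 3 *Pkd1*-/- and 3 wild type mDCT15 samples, grouped by their titles, was depleted of ribosomal RNA and sequenced in pairs of 42 bp. Per the labels and the paper's methods, the authors trimmed reads with Trim Galore 0.4.5, mapped them with STAR 2.7.5a to GRCm39 (Ensembl release 105), counted them with HTSeq 0.11.0 at default settings and normalized them with DESeq2 1.22.0 in R 3.5.3. Of the deposited columns, only the mean of the normalized counts was used, a signal averaged by the authors over the samples of both genotypes. The other columns hold the authors' own comparison of the genotypes (fold changes, standard errors, test statistics and p-values) and were not used, so no test was made. Depth per sample is unknown. The paper also states a minimum count for each gene in each sample. The lowest mean normalized count among the rows was 0.618, so which filter set the rows is unknown.

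Each mean was divided by the merged exon length in GENCODE vM39, which has transcripts added since the annotation used for counting. Percentiles are shares of genes with a lower value. A symbol with several rows took the highest mean. Functions were tested on simulated data. The members and lists were chosen with earlier results of these data known. Named genes were the 10 members, the markers, list genes with no row or a mean under 10, and the highest and lowest level of each list. Alternatives were other lengths, other sets of genes to rank and other minimum means (1 and 100). Protein sequences were not used here. Of the listed genes, 2 are not reported here. Python 3.11.15, numpy 2.4.6, pandas 2.3.3 and matplotlib 3.10.9 were used.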

Additional observations from a re-analysis of the deposited data

How the results depend on the processing

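The levels rest on the gene length chosen. The ratio of the highest to the lowest level of the 10 genes was 189.4 over merged exons (*Trim28* to *Tet1*) and 59.6 with the median length of annotated transcripts, where the lowest gene was *Dnmt3b*. Under that length *Trim28* was 9.77 times *Tet1*. With the longest transcript, the coding length and the canonical transcript, the last chosen after seeing the data, this ratio moved by less than 1.5 times. Single levels moved by more than that in 27 of 40 values. Of the 10 genes, 10 moved with the coding length, 7 with the median transcript and 5 each with the longest and the canonical transcript. Every other length tried is shorter than the merged exons, so each level rose. The median percentile of the 10 genes was 90.4 by mean normalized count and 82.2 by level per kilobase, and ranking within other sets of genes moved this median by less than 5 points. Percentiles of single genes moved by more than 5 points in 16 of 40 values, 5 of 10 where only genes averaging 10 or more counts were ranked and 5 of 10 for protein-coding genes. In the former set *Dnmt3b* went from 53.2 to 29.6, *Tet1* from 52.2 to 28.2 and *Tet2* from 78.1 to 67.1, so that *Dnmt3b* and *Tet1* crossed the median.

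The counts of partner genes with a mean of at least 10 stayed within 1.5 times with a minimum of 1 or 100. How the levels, ranges and medians of the partner lists depend on the gene length was not tested. No paired analysis was possible because the table holds no values of single samples. The same lack leaves the error of each level unknown, and a gene with no row has no value rather than a value of 0.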
